A study of Homo sapiens with 6 samples.

Results

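Plasmin, the protease that dissolves fibrin and cuts matrix proteins at cell surfaces, is released from its precursor plasminogen by the urokinase-type activator (gene PLAU) and the tissue-type activator (PLAT). Receptors hold the activators and plasminogen on the membrane, and serpins, which trap proteases in a covalent complex, switch the activators off. The protein C receptor (PROCR) belongs to the neighbouring anticoagulant pathway, where it presents protein C to the complex of thrombin and thrombomodulin. In the nervous system the tissue-type activator and its inhibitor neuroserpin (SERPINI1) are known for roles in axon growth and synaptic plasticity, and urokinase and its receptor (PLAUR) are known for cell migration and tumour invasion.

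The 7 genes described here are PLAU, PLAT, PLAUR, PLGRKT, SERPINE2, SERPINI1 and PROCR, taken by name from a table of 58735 annotated features. They were chosen with their fold changes between the groups already known, so those fold changes are given as a description and not as a test of these genes. Of the 7 genes, 7 passed the filter on low counts.

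The libraries are labelled BE(2)-C, an established human neuroblastoma line, grown in DMEM with calf serum and antibiotics. NS cells (n = 3) carried a lentiviral non-silencing hairpin and shACSS2 cells (n = 3) a lentiviral hairpin against ACSS2, the enzyme that turns acetate into acetyl-CoA in nucleus and cytosol, and both groups were selected with puromycin. The labels give NS as wild type and shACSS2 as ACSS2 deficient. The titles write siACSS2, the protocol once writes shNgBR for the silenced line, and the sources used here give neither the number of hairpins nor that of clones. Nothing in the labels says that the libraries came from separate cultures, so the errors and p-values cover only the spread between these libraries, which may be technical.

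Library totals ran from 16617885 to 20831599 counts. ACSS2 itself had 366, 387 and 438 counts in NS against 75, 84 and 110 in shACSS2 (−1.94 in log2 with an SE of 0.145; adjusted p = 1.95e-06, edgeR). In a principal component analysis shACSS2 replicate 1 stood apart on the second axis (20.1% of the variance), with a score of −30.0 against 23.8 and 14.2 in the other libraries of its group. PHOX2A and TH, markers of adrenergic neuroblastoma, had 0 counts in every library, and a list of 8 such markers summed to 35.6 to 41.7 CPM (read counts scaled to one common library total) in NS and 41.3 to 47.7 CPM in shACSS2. Of 6 endothelial markers none reached a mean of 1 CPM, with sums of 1.59 to 1.71 CPM in NS and 1.06 to 1.65 CPM in shACSS2, and 5 leukocyte markers summed to at most 0.896 CPM in any library. Of 6 fibroblast markers COL1A2 was at 0 and 4 averaged 1 CPM or more, and their sum ran from 31.0 to 36.8 CPM in NS and from 38.1 to 48.0 CPM in shACSS2. The sum moved with the groups, and its part in the results was not tested. LUM had separate ranges (mean 2.14 CPM in NS and 5.82 CPM in shACSS2, edgeR adjusted p = 0.000784). COL1A1, COL3A1 and PDGFRB overlapped between the groups, and DCN, with at most 5 counts, was lower in shACSS2. In such bulk RNA, fewer cells that make a transcript and less transcript per cell cannot be told apart.

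In all, 16210 genes were tested, and 17.1% passed the threshold (an adjusted p under 0.05 by the quasi-likelihood test of edgeR, with Benjamini-Hochberg adjustment over all genes tested), 7.48% higher and 9.64% lower in shACSS2. Of the genes called, 43.7% were higher, and 25.8% when library totals replaced the composition factors. NS and shACSS2 libraries had separate CPM ranges in 36.3% of all tested genes, 17.6% with shACSS2 higher and 18.7% with shACSS2 lower. Among the 7 genes 5 were past the threshold, 4 higher (PLAU, PLAT, SERPINI1 and PROCR) and 1 lower (PLGRKT), and in 7 of 7 the groups did not overlap. Nothing is read from these counts, because the same contrast chose the genes. Their median log2 fold change was 0.43, beside 0.00 over all genes tested.

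**Figure D1:**
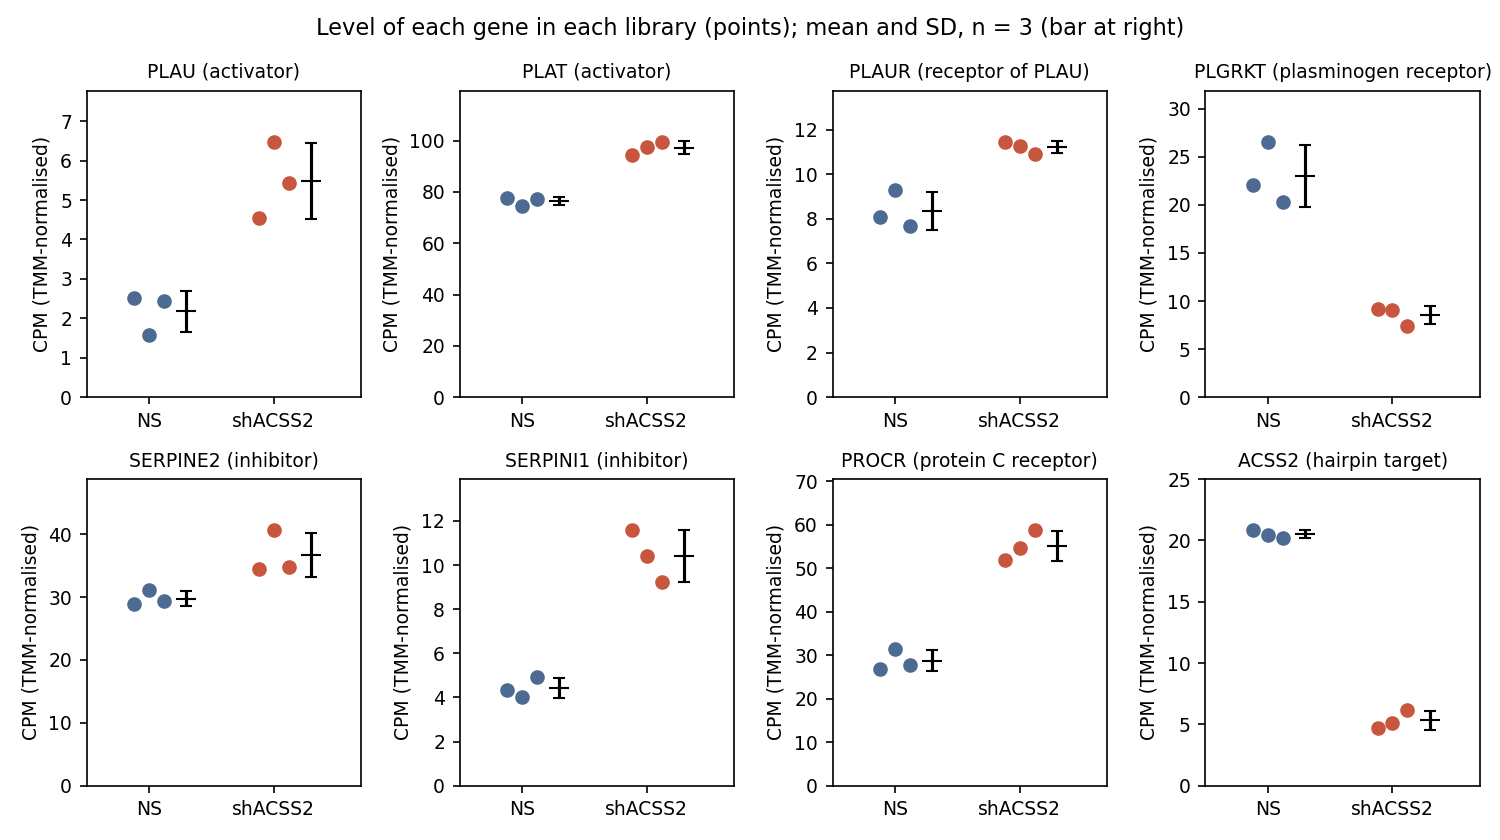
Level of each of the 7 genes, and of ACSS2, in each library. The vertical axes give TMM-normalised CPM from 0, points are libraries (blue NS, red shACSS2), and the bar beside them is the mean with the SD (n = 3). PLGRKT and ACSS2 are lower in the 3 shACSS2 libraries than in any NS library, and the other 6 genes are higher.

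The largest change of the set in either direction was the fall of PLGRKT, which encodes a small transmembrane receptor whose C-terminal lysine binds plasminogen. Its annotated 3′ UTR (266 bases) holds 2 overlapping matches to the sequences ATGCTCA and TGCTCAA, which an earlier search of these same fold changes had found to be frequent in genes that fell. The stretch from base 61 to base 90 of that UTR, counted from the base after the stop codon and read from the GENCODE v29 transcript, is shown because PLGRKT is the only one of the 7 genes with such a match. Capitals mark the matches at bases 72 to 79.
PLGRKT: cagttttttaaATGCTCAAgattttgatat
The UTRs of the other 6 genes, 245 to 932 bases long, did not hold these letters. Of 18780 genes with an annotated 3′ UTR of at least 50 bases, 16.4% held either sequence. Because the sequence was picked from the same contrast, its presence in PLGRKT is no separate evidence.

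The 250 bases before the RefSeq start site (GRCh38.p14) are printed for PLGRKT, the gene that fell, and for PROCR, a gene that rose, since neither window holds an annotated exon of a coding gene. Motifs searched on both strands were the GC box bound by Sp1-like factors (GGGCGG), the AP-1 site (TGANTCA), the cAMP response element (TGACGTCA) and the E-box bound by MYC (CACGTG), and capitals mark matches. The PLGRKT window lies on the minus strand at chr9:5437926-5438175 and the PROCR window on the plus strand at chr20:35171822-35172071.
PLGRKT: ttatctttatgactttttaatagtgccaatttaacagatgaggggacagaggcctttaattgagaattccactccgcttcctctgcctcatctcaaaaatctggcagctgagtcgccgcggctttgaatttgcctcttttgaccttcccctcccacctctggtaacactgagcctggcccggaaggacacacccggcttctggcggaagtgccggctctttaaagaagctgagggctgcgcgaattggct
PROCR: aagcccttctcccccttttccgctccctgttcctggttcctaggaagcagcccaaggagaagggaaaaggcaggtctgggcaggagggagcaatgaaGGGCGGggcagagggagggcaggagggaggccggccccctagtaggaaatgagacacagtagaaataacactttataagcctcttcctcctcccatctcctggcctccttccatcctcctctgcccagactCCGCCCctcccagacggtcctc
The PROCR window held 2 GC boxes, a motif present in 42.6% of the 35116 RefSeq windows of this length, and none of the other letters. The PLGRKT window held none of the 4 motifs. GC boxes were also present in 1 of the 2 PLAU windows (3 matches) and in both SERPINE2 windows (1 and 2 matches). Among the windows of PLAU, PLAUR, SERPINE2 and SERPINI1, that of PLAUR held 1 AP-1 site (6.57% of all windows), 1 of the 2 SERPINE2 windows held 1 E-box (6.34% of all windows), and none held a cAMP response element (1.65% of all windows). These are matches of letters and not measured binding.

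The activators differed in level and in how far they moved. PLAU (chromosome 10, 73909177 to 73917497, plus strand, GRCh38), the urokinase-type activator, had 44, 30 and 53 counts in NS against 73, 106 and 97 in shACSS2. In normalised units this was 2.50, 1.59 and 2.44 CPM against 4.55, 6.48 and 5.43 CPM. The lowest shACSS2 library stood 2.04 CPM above the highest NS library, and the spread within each group was wide for the level (a coefficient of variation of 23.6% in NS and 17.7% in shACSS2). PLAU rose 2.51-fold (log2 fold change 1.33, SE 0.236), the 36th highest value among the 16210 genes tested. C10orf55, which lies on the opposite strand and overlaps PLAU, had at most 2 counts in any library.

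PLAT (chromosome 8, 42175233 to 42207724, minus strand), the tissue-type activator, was by far the more abundant activator. It had 1362, 1410 and 1675 counts in NS against 1517, 1596 and 1779 in shACSS2. Its CPM were 77.5, 74.5 and 77.2 in NS and 94.5, 97.6 and 99.6 in shACSS2, so the libraries of each group lay close together and the groups were 16.9 CPM apart. PLAT rose 1.27-fold (log2 fold change 0.35, SE 0.0909). Its call ended with library totals (log2 fold change 0.27), without any 1 of the NS libraries (0.33 to 0.35) and without shACSS2 replicate 3 (0.33).

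Per kilobase of annotated exon, the level of PLAT was 13.8, 21.0 and 14.1 times that of PLAU in the NS libraries and 9.26, 6.71 and 8.18 times in the shACSS2 libraries. The mean ratio was 16.3 ± 4.05 (SD, n = 3) in NS and 8.05 ± 1.28 (SD, n = 3) in shACSS2. With the longest coding transcript as the length these means were 35.9 and 17.7. PLAT thus stayed the main activator transcript in 6 of 6 libraries.

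Of the receptors, the one for urokinase had higher levels in shACSS2 but did not pass the threshold. PLAUR (chromosome 19, 43646095 to 43670547, minus strand), a membrane-anchored protein that focuses urokinase at the cell surface, had 142, 176 and 166 counts in NS against 184, 184 and 195 in shACSS2. Its CPM were 8.08, 9.30 and 7.65 in NS and 11.5, 11.3 and 10.9 in shACSS2. The groups were 1.62 CPM apart, and the shACSS2 libraries differed among themselves by less than the NS libraries (SD 0.271 and 0.853 CPM). The log2 fold change was 0.43 (SE 0.145), which did not pass the threshold in the reported analysis or in any of 15 alternatives.

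PLGRKT (chromosome 9, 5357973 to 5437878, minus strand) went the opposite way. Its counts were 387, 503 and 441 in NS against 147, 148 and 133 in shACSS2. Its CPM were 22.0, 26.6 and 20.3 in NS and 9.15, 9.05 and 7.45 in shACSS2, with NS replicate 2 the highest library and a gap of 11.2 CPM between the groups. PLGRKT was 2.69-fold lower in shACSS2 (log2 fold change −1.43, SE 0.146), and 106 of the 16210 genes tested had a lower value. The processed pseudogene RNF152P1 inside it had at most 2 counts.

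Both inhibitors of the set had higher levels in shACSS2, by unequal amounts. SERPINI1 (chromosome 3, 167735243 to 167825568, plus strand) encodes neuroserpin, a secreted inhibitor of the tissue-type activator in neurons. It had 76, 76 and 107 counts in NS against 186, 170 and 165 in shACSS2. Its CPM were 4.33, 4.02 and 4.93 in NS and 11.6, 10.4 and 9.24 in shACSS2, and the groups lay 4.31 CPM apart. SERPINI1 rose 2.34-fold (log2 fold change 1.23, SE 0.169), the 53rd highest value among the genes tested.

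SERPINE2 (chromosome 2, 223975112 to 224039319, minus strand) encodes protease nexin-1, which inhibits thrombin, urokinase and the tissue-type activator. It had 507, 588 and 638 counts in NS against 555, 665 and 620 in shACSS2. Its CPM were 28.9, 31.1 and 29.4 in NS and 34.6, 40.7 and 34.7 in shACSS2, where replicate 2 was the highest library. The groups were 3.49 CPM apart, about the SD within shACSS2 (3.48 CPM). Its log2 fold change of 0.30 (SE 0.110) did not pass the threshold, and it passed in 1 of 15 alternatives, without shACSS2 replicate 1 (0.34).

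The balance between these inhibitors differed between the groups. Per kilobase of exon SERPINE2 was 1.81, 2.10 and 1.62 times SERPINI1 in NS and 0.811, 1.06 and 1.02 times SERPINI1 in shACSS2. With the longest coding transcript as the length the mean ratio was 5.04 ± 0.663 (SD, n = 3) in NS and 2.64 ± 0.369 (SD, n = 3) in shACSS2, so which inhibitor was the more abundant in shACSS2 depended on the length used.

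PROCR (chromosome 20, 35172073 to 35216240, plus strand), the endothelial protein C receptor, rose with little spread. Its counts were 472, 595 and 603 in NS against 834, 893 and 1049 in shACSS2. Its CPM were 26.9, 31.4 and 27.8 in NS and 51.9, 54.6 and 58.7 in shACSS2, and the gap of 20.5 CPM between the groups was the widest of the 7 genes. PROCR rose 1.92-fold (log2 fold change 0.94, SE 0.108). The endothelial markers that PROCR accompanies in vessels were near 0 in both groups, as given above.

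The order of the levels per length changed between the groups. Per kilobase of annotated exon the order in NS was PROCR (16.9 ± 1.42 CPM per kilobase), PLGRKT (15.4 ± 2.16), PLAT (11.5 ± 0.253), SERPINE2 (3.35 ± 0.129), PLAUR (1.87 ± 0.191), SERPINI1 (1.83 ± 0.193) and PLAU (0.738 ± 0.174), each mean ± SD with n = 3. PROCR and PLGRKT overlapped there, as did PLAUR and SERPINI1, and the other neighbours in the order did not. In shACSS2 PROCR stood first at 32.5 ± 2.02 CPM per kilobase, followed by PLAT at 14.7 ± 0.394 and PLGRKT at 5.73 ± 0.640. SERPINI1 (4.30 ± 0.484) and SERPINE2 (4.12 ± 0.392) followed and overlapped, and PLAUR (2.52 ± 0.0608) and PLAU (1.86 ± 0.329) were the lowest. With the longest coding transcript as the length, PLAT led in NS at 28.2 ± 0.619, overlapping PLGRKT, and PROCR led in shACSS2 at 40.9 ± 2.55.

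**Figure D2:**
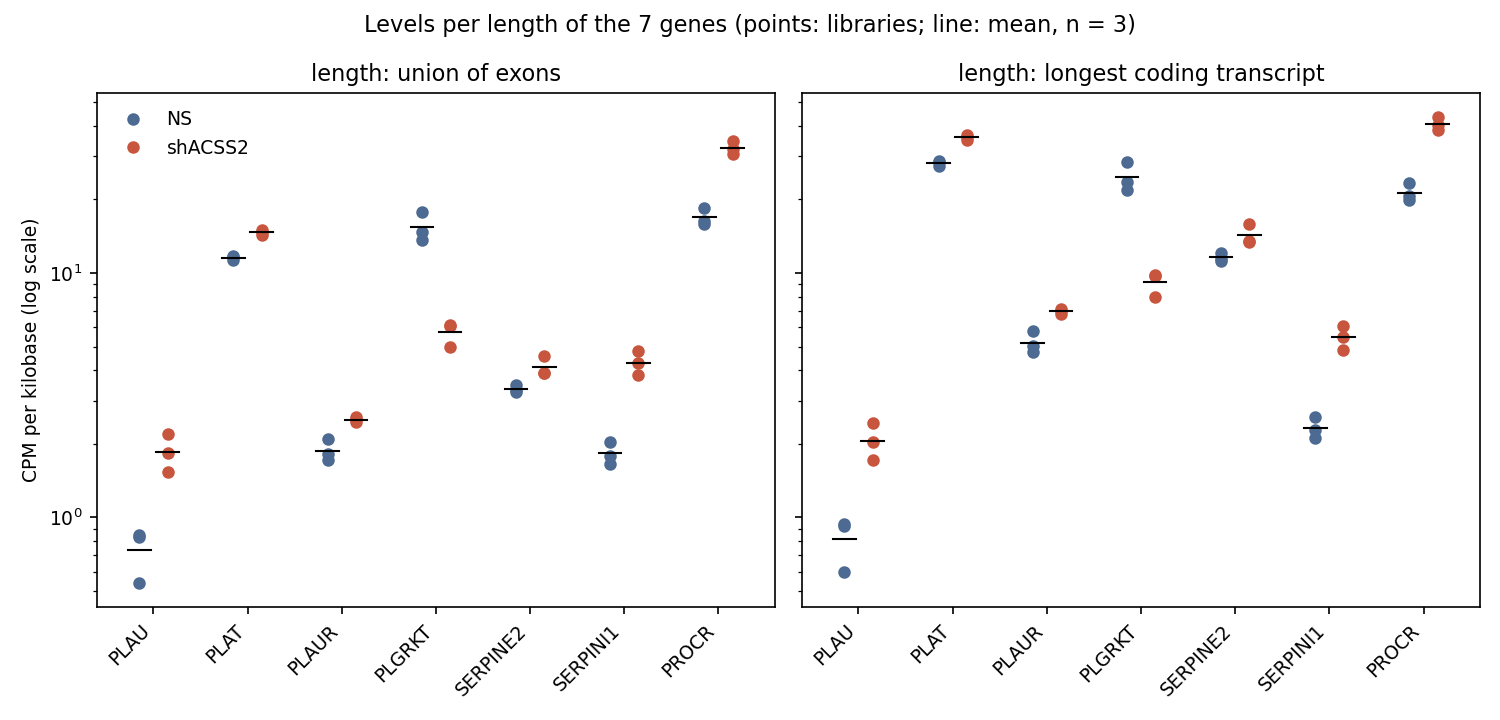
Level per length of the 7 genes in each library, on a logarithmic axis in CPM per kilobase, with the union of annotated exons (left) or the longest coding transcript (right) as the length. Points are libraries (blue NS, red shACSS2) and lines are means (n = 3). PLAU is the lowest gene in both groups and PROCR the highest in shACSS2 with either length.

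The other genes of these pathways were taken from 4 lists with 68 genes in all, of which 41 had enough counts to be tested. Of the 41, 3 rose, 1 fell and 37 did not pass (9.76% called, beside 17.1% of all genes tested), with a median log2 fold change of 0.05 beside 0.00 over all genes. The lists were drawn up with earlier results of these data known.

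Transcripts of plasminogen itself were not detected. PLG had 0 counts in every library, which allows up to 0.0277 CPM (3 counts over the 108405728 counts of all libraries, counting error only). SERPINB2 had at most 9 counts and SERPINF2, the plasmin inhibitor, at most 2, and these genes had too few counts to be tested. The choice to name PLG, SERPINB2 and SERPINF2 was made with their values in view. In this list of 12 genes 4 were tested, 0 rose and 0 fell in edgeR. The most abundant were SERPINH1, a collagen chaperone, at a log2 fold change of −0.14 (SE 0.101), and SERPINB6 at 0.05 (SE 0.0950). Of the 4, 0 reached an unadjusted p under 0.05 and 0 passed in DESeq2 or limma voom.

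Among the receptors for plasminogen and the receptors that clear its activators, 14 of 16 genes were tested, 1 rose, 1 fell and 12 did not pass. LRP1, the endocytic receptor that removes activator and serpin complexes from the surface, had 2243, 2058 and 2509 counts in NS against 803, 1149 and 1343 in shACSS2. It fell from 117 ± 9.60 CPM to 65.2 ± 13.4 CPM (mean ± SD, n = 3; −0.85 in log2 with an SE of 0.131; adjusted p = 0.000659, edgeR). The lowest library was shACSS2 replicate 1, and without it the log2 fold change was −0.69 (edgeR adjusted p = 4.00e-05). LRPAP1, the chaperone that guards LRP1 during its synthesis, rose from 107 ± 7.84 to 133 ± 5.14 CPM (0.32 in log2 with an SE of 0.0948; adjusted p = 0.0321, edgeR). The call of LRPAP1 ended with library totals and without NS replicate 1, NS replicate 3, shACSS2 replicate 2 or shACSS2 replicate 3 (edgeR adjusted p from 0.0774 to 0.158). ENO1, a glycolytic enzyme that also serves as a plasminogen receptor, stood at −0.20 in log2 (SE 0.0888) and ITGB1, the beta-1 integrin, at 0.10 (SE 0.0962), neither past the test.

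In the list for protein C and thrombin 12 of 20 genes were tested, 2 rose, 0 fell and 10 did not pass, with a median log2 fold change of 0.23. THBD, thrombomodulin, is the partner that turns thrombin into the activator of protein C bound to PROCR. It had 42, 43 and 36 counts in NS against 90, 77 and 60 in shACSS2. THBD rose from 2.11 ± 0.392 to 4.56 ± 1.13 CPM (mean ± SD, n = 3; 1.11 in log2 with an SE of 0.253; adjusted p = 0.00803, edgeR), and without NS replicate 3 the adjusted p was 0.0493. TFPI, the inhibitor of the tissue factor pathway, rose from 6.87 ± 0.550 to 9.67 ± 1.06 CPM (0.49 in log2 with an SE of 0.157; adjusted p = 0.0432, edgeR). That call ended in 10 of 15 alternatives, among them the omission of any 1 library (edgeR adjusted p from 0.0621 to 0.181) and the replicate block (0.0526). F2R, the thrombin receptor PAR1, and GGCX, the carboxylase that matures protein C, stood at −0.19 (SE 0.104) and −0.05 (SE 0.102) in log2 and did not pass. The ligand side was scarce, with at most 11 counts of PROC and at most 2 of F2 (thrombin) in any library, genes likewise named with their values in view.

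Of the pericellular proteases and their inhibitors, 11 of 20 genes were tested, 0 rose and 0 fell in edgeR, and DESeq2 and limma voom also called 0. At an unadjusted p under 0.05, 3 of the 11 stood out in edgeR, and they are named with their values in view. TIMP2 (0.25 in log2, SE 0.107) and TIMP3 (0.24, SE 0.103) were higher and BDNF (−1.03, SE 0.472) lower. Without shACSS2 replicate 1, TIMP2 passed the threshold. The most abundant were not among these 3. TIMP1, an inhibitor of matrix metalloproteinases, stood at 0.16 in log2 (SE 0.0949). TGFB1, a growth factor that plasmin can release from its latent form, stood at −0.06 (SE 0.113).

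**Figure D3:**
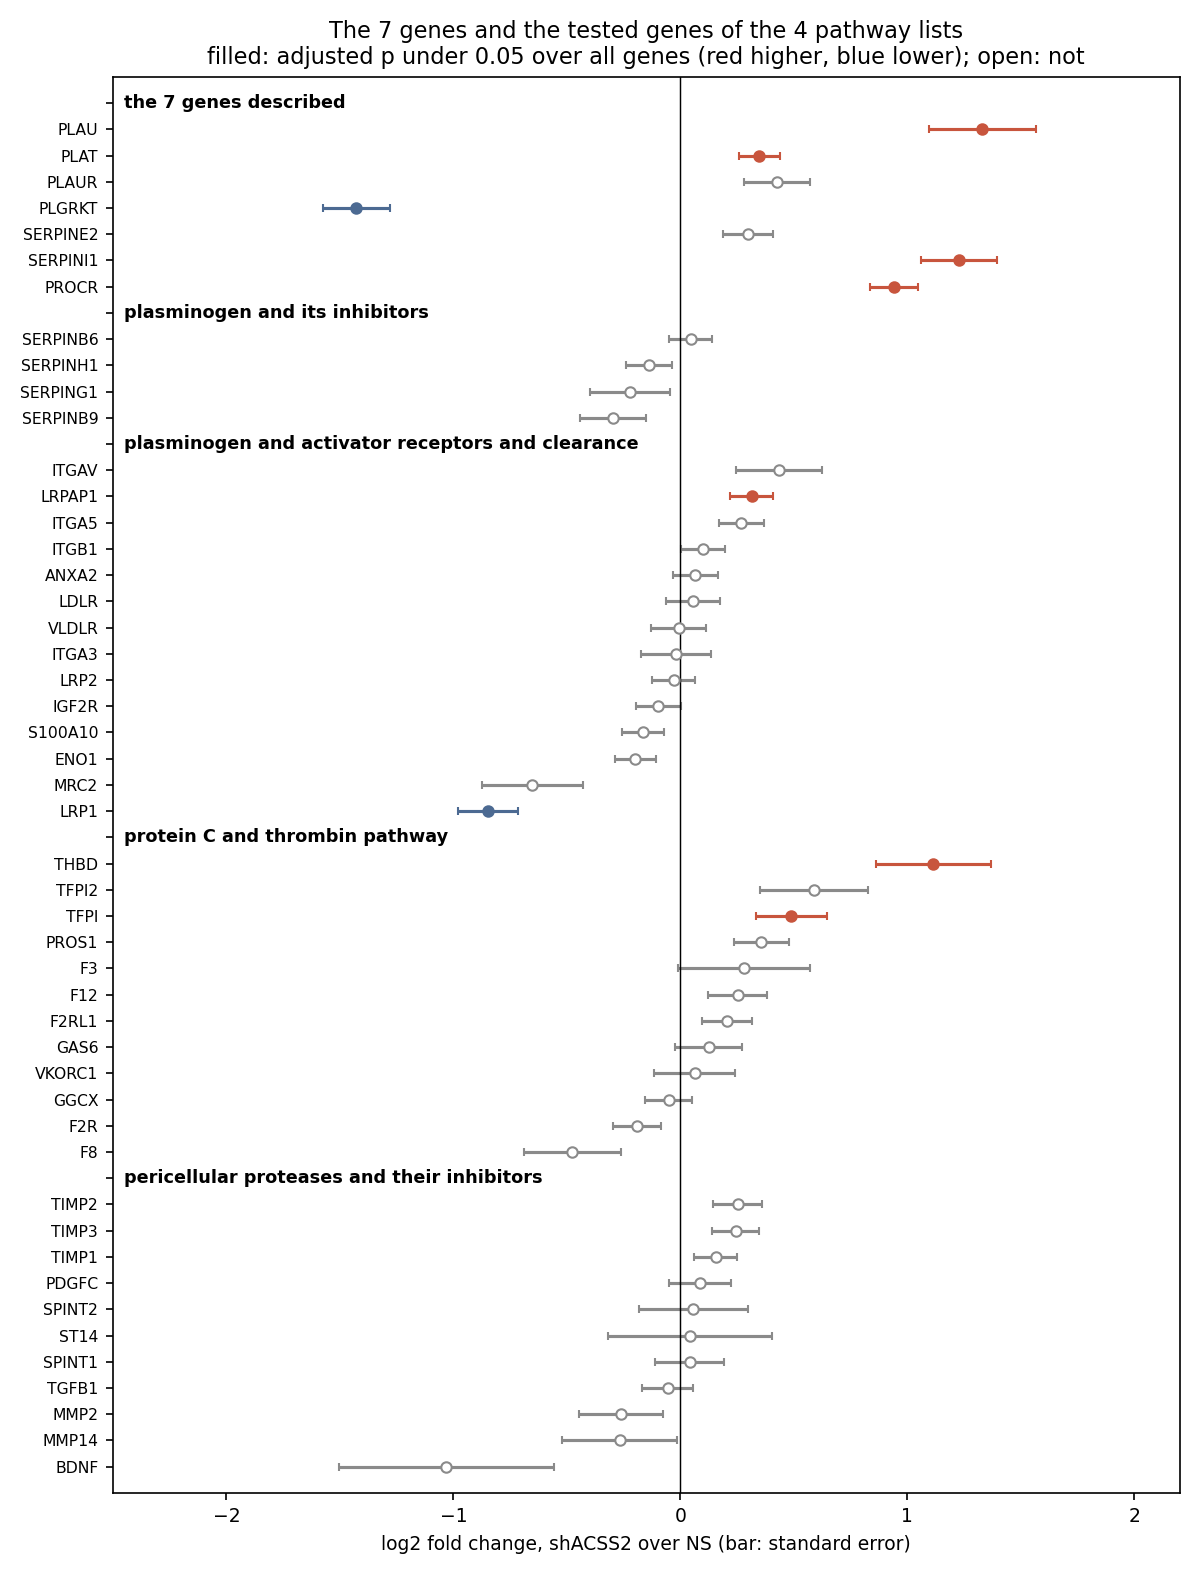
Log2 fold change (shACSS2 over NS) with its standard error for the 7 genes and for the 41 tested genes of the 4 lists. Filled points are past an adjusted p of 0.05 over all genes tested (red higher, blue lower) and open points are not. LRP1 at −0.85 and THBD at 1.11 are the largest changes past the test outside the 7 genes.

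The sequence matched in the PLGRKT 3′ UTR was also looked for in these lists. It was present in 10 of the 41 tested genes (24.4%), beside 16.4% of the 18780 genes with a UTR of at least 50 bases. Of these 10, 2 rose (TFPI and LRPAP1), 0 fell and 8 did not pass. Their 3′ UTRs were 360 to 9377 bases long, and UTR length was not taken into account. LRP1, the gene of the lists that fell, did not hold the sequence. Among all tested genes with such a UTR the share was 43.9% of the 1312 that fell and 6.75% of the 1111 that rose. Among the 10840 that did not pass it was 16.0%. The sequences were picked for being frequent in genes that fell in this same contrast, so these shares are no separate evidence.

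Of 12 tested genes beside or overlapping the 7 loci, 3 rose, 1 fell and 8 did not pass (33.3% called, beside 17.1% of all genes tested), and 6 of the 12 had a fold change of the same sign as the gene they adjoin. PDCD10, a kinase adaptor, lies 303 bases before SERPINI1 on the opposite strand, so that the genes point away from each other. PDCD10 rose from 50.9 ± 6.77 to 69.2 ± 11.5 CPM (mean ± SD, n = 3; 0.44 in log2 with an SE of 0.127; adjusted p = 0.0265, edgeR), a call that ended without NS replicate 1 or NS replicate 3 (edgeR adjusted p = 0.142 and 0.121). GOLIM4, a Golgi membrane protein on the far side of SERPINI1, fell (−0.48 in log2 with an SE of 0.0912; adjusted p = 0.00302, edgeR). PROCR starts 244110 bases after the end of ACSS2 on chromosome 20. The gene before PROCR, EDEM2, which helps to clear misfolded glycoproteins from the ER, rose (0.37 in log2 with an SE of 0.114; adjusted p = 0.0353, edgeR). The gene after it, MMP24, did not pass at −0.56 (SE 0.374), nor did MMP24OS at −0.32 (SE 0.131). MMP24OS overlaps PROCR on the other strand, and no source used here says whether counting used strand, so reads in the shared stretch may be lost or assigned to either gene.

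Around PLGRKT, RLN1 stood at 0.33 in log2 (SE 0.293) and CD274, which encodes PD-L1, had at most 12 counts in a library and was not tested. Next to PLAU, CAMK2G stood at −0.09 (SE 0.109) and VCL at −0.14 (SE 0.0928) in log2. Next to PLAT, AP3M2 stood at 0.15 (SE 0.0957) and IKBKB at 0.19 (SE 0.100), and next to PLAUR, CADM4 stood at 0.35 (SE 0.137). None of these passed the test. MRPL44, a mitochondrial ribosomal protein gene next to SERPINE2, rose (0.36 in log2 with an SE of 0.106; adjusted p = 0.0278, edgeR). The calls of MRPL44 and EDEM2 ended with library totals, without shACSS2 replicate 3, and without NS replicate 1 or 3.

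**Figure D4:**
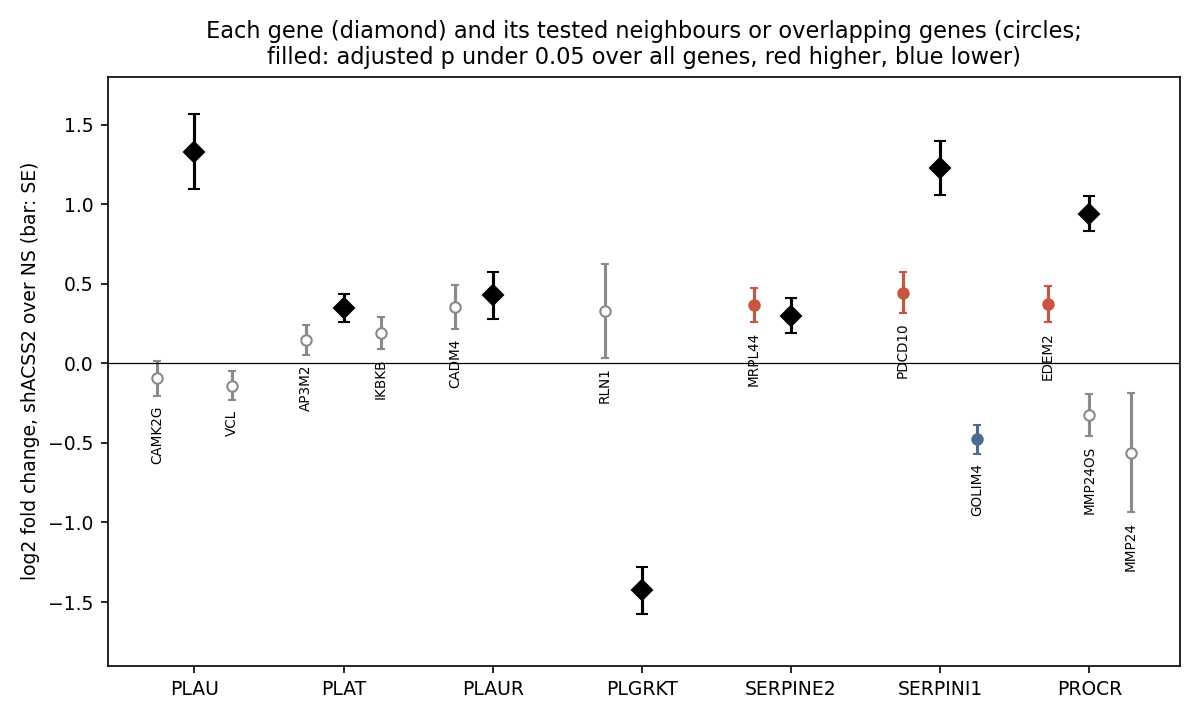
Log2 fold change (shACSS2 over NS, with its standard error) of each of the 7 genes (diamonds) and of the tested genes beside or overlapping it (circles). Filled circles are past an adjusted p of 0.05 over all genes tested (red higher, blue lower). The neighbours of SERPINI1 went in opposite directions, PDCD10 at 0.44 and GOLIM4 at −0.48, and those of PLAU stayed near 0.

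The genes whose profile over the 6 libraries was most like each of the 7 were found by Pearson correlation of log2 CPM among 11894 genes (11895 for PLAU) with a mean of at least 5 CPM. For PLGRKT these were EIF2S2 (r = 0.999), a subunit of an initiation factor of translation, and MTRR (0.995), methionine synthase reductase, with log2 fold changes of −0.46 and −0.60. For PROCR they were FAF1 (0.999) and FARS2 (0.997), for SERPINI1 GMPS (0.997) and the ER chaperone HSP90B1 (0.996), for PLAT SLC35F2 (0.999) and BRINP3 (0.997), and for PLAU IGSF3 (0.991) and SFXN3 (0.990). For PLAUR they were BFAR (0.999) and SORBS2 (0.998), and for SERPINE2 SCAMP2 (0.992) and SNAP29 (0.991). With 6 libraries in 2 groups and so many genes searched, coefficients this high are a description of the group difference and its spread. The size of change is not part of the measure, as GMPS shows with a log2 fold change of 0.18 against 1.23 for SERPINI1.

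**Figure D5:**
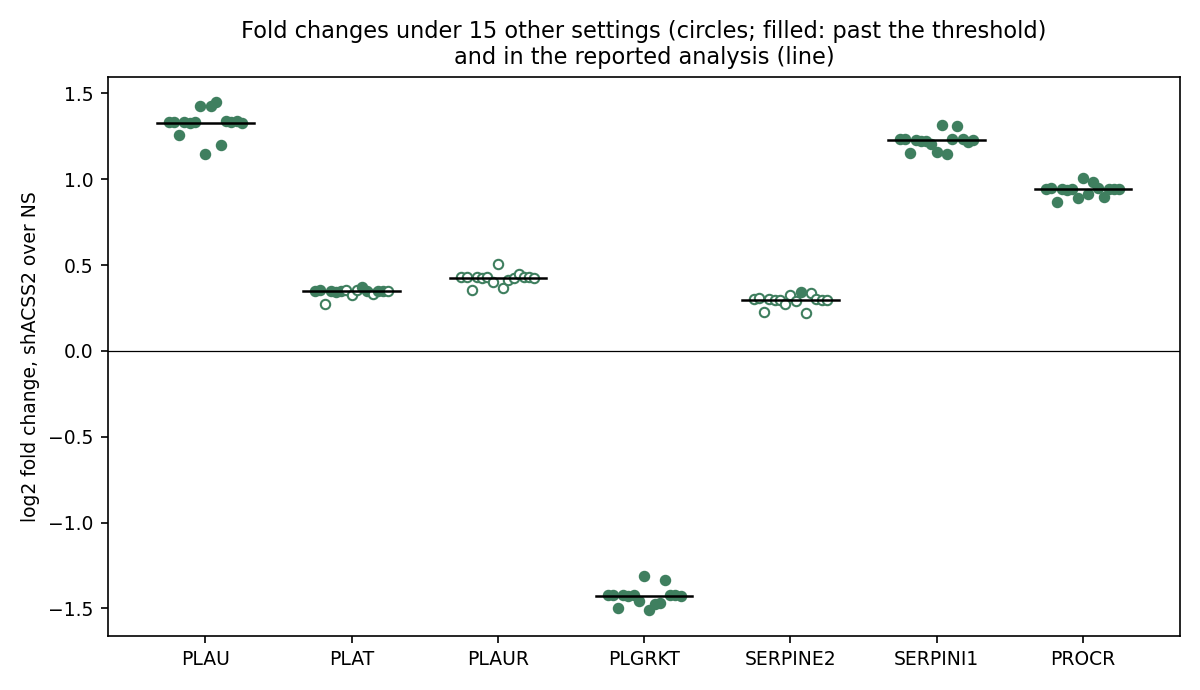
Log2 fold change (shACSS2 over NS) of the 7 genes in the reported analysis (line) and under 15 other settings (circles, filled where the gene was past the threshold). PLAU, PLGRKT, SERPINI1 and PROCR were past it in each setting, and no gene changed direction.

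The directions of the 7 genes were the same in each of 15 alternatives. The log2 fold changes ran from 1.15 to 1.45 for PLAU, from 1.15 to 1.31 for SERPINI1, from 0.87 to 1.01 for PROCR and from −1.51 to −1.31 for PLGRKT, and these 4 genes were past the threshold throughout. Those of PLAT ran from 0.27 to 0.37, those of PLAUR from 0.35 to 0.51 and those of SERPINE2 from 0.22 to 0.34. Without shACSS2 replicate 1, the library that stood apart, the values were 1.45 for PLAU, 1.15 for SERPINI1, 0.98 for PROCR, −1.48 for PLGRKT, 0.37 for PLAT, 0.41 for PLAUR and 0.34 for SERPINE2.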

How the data were processed

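RNA sequencing of 3 NS and 3 shACSS2 libraries was analysed. The values deposited by the authors are raw counts of reads for each gene. The tools were HISAT2 2.0.5, featureCounts 1.5.0-p3, fastp and DESeq2 (version given as 4.3.1), with the build hg19, per the submitters' processing notes. No source used here gives the settings for strand or for multiply matching reads. Identifiers were matched to GENCODE v29 (58735 of 58735), whose GRCh38 positions and exon lengths are printed. Since that annotation and hg19 differ, the build of the alignment is not settled. Of the gene names, 27 differed from GENCODE and were replaced by identifier.

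Counts were tested with edgeR 4.0.16 in R 4.3.3 (quasi-likelihood fit with the robust option, group as the only term, TMM scaling, and genes kept by filterByExpr) with Benjamini-Hochberg adjustment over 16210 genes at 0.05. The SE was taken as the absolute log2 fold change divided by the root of the F statistic. CPM are TMM-normalised. The code was tested on simulated data. The 7 genes and the lists were chosen with earlier results of these data known. The rule for named genes took the 7 genes, ACSS2, from each of 4 lists up to 4 called genes averaging 1 CPM or more and the 2 most abundant others, the 2 genes most like each of the 7 (mean of at least 5 CPM), and neighbouring and overlapping genes. Promoter windows were taken by symbol from RefSeq (GRCh38.p14), which matched PLAU, PLAUR, PLGRKT, SERPINE2, SERPINI1 and PROCR.

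Within groups, pairs of libraries differed with a chi-square of 4.28 to 17.3 per degree of freedom, more than counting noise gives, so no pair was treated as one library deposited more than once. This does not show that the libraries came from separate cultures. Alternatives were RLE, upper quartile and library totals as scaling, no filter or 1 CPM in 3 libraries, DESeq2 1.42.0, limma 3.58.1 voom, an adjusted p of 0.01, a replicate block, omission of each library and, added after the data were seen, another gene length.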

Additional observations from a re-analysis of the deposited data

How the results depend on the processing

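At an adjusted p of 0.01 in place of 0.05, 1010 genes were called in place of 2776 (330 higher and 680 lower in place of 1213 and 1563), and 2 genes of the pathway lists in place of 4 (1 higher in place of 3). With library totals 734 genes were called higher, and of the lists 1 gene higher (THBD) and 2 lower (LRP1 and ENO1) in place of 1 lower. Of the lists 2 genes (LRP1 and MRC2) were lower with no count filter, and likewise with the replicate block. Omission of 1 library moved the number of genes called between 1018 and 3931 (310 to 1837 higher and 708 to 2094 lower). The lowest values came without NS replicate 1 or NS replicate 3 and the highest without shACSS2 replicate 1, and without shACSS2 replicate 2 there were 801 higher. The same omissions gave 2 to 7 called list genes, 1 to 5 higher and 1 to 2 lower. LRP1 and THBD were past the test in each of the 15 alternatives, and 4 to 6 of the 7 genes were.

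The titles number the replicates alike in both groups. Deviations of same-numbered libraries from their group means correlated at −0.0428, −0.0664 and 0.112, and those of differently numbered libraries at −0.123 to 0.158. With 3 libraries per group this cannot settle whether the numbers pair the libraries, and the reported analysis used no pairing. With the replicate block 2923 genes were called, 5 of the 7 genes among them. The gene length used set the order of levels between genes. Counts under about 10 per library, as for SERPINB2 and F2, are too few for a comparison.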
